A study of Mus musculus with 6 samples.

Results

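The major urinary protein (Mup) genes described here are 10 of the 49 genes named Mup in GENCODE release M21, and 10 of the 55450 genes counted in each library. They are Mup1, Mup2, Mup3, Mup4, Mup5, Mup6, Mup7, Mup17, Mup20 and Mup21, chosen by their annotated names and found in the count files by their versioned Ensembl identifiers. Their RNA was counted in 6 bulk RNA-Seq libraries of hepatocytes, of which 3 came from undamaged liver (0 h) and the other 3 from liver regrowing for 48 h since partial hepatectomy (PHx), the surgical removal of a large part of the liver. The comparison asks how hepatocytes express genes of their mature, secretory program while the liver regrows. Donors in both groups were male C57BL/6 mice (C57BL/6J in the study's methods) on a normal diet, with no transgene or drug named. The labels give their age as 10 to 12 weeks, while the study's methods give a younger range for the surgery. Hepatocytes were obtained in both by perfusing the liver with collagenase in 2 steps, and their RNA was extracted with TRIzol. The 0 h mice had no sham operation, so effects of the surgery itself and of the regrowth of the liver cannot be told apart.

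Major urinary proteins are small secreted lipocalins, barrel-shaped carriers of hydrophobic molecules. Liver makes them in large amounts, above all in adult males, and the kidney passes them into urine, where they bind and slowly release pheromones. In male mouse liver their transcription is known to depend on the pulses of growth hormone that reach hepatocytes through the growth hormone receptor and STAT5B, and testosterone, thyroid hormone and glucocorticoids act on it as well. Mup20 encodes darcin, a protein pheromone of male urine. Mup4 and Mup5 are known mainly from glands and nasal tissue rather than from liver.

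Of the 49 Mup genes, 48 lie in a single cluster on chromosome 4 between positions 59956804 and 62150863 of GRCm38, and 1 pseudogene lies on chromosome 11. Annotated as protein coding are 22 of them, the 10 members among these, and 27 are pseudogenes. Mup4 (ENSMUSG00000041333.6, chr4:59956804-59960710) opens the cluster and Mup21 (ENSMUSG00000066153.2, chr4:62147932-62150863) closes it. Next to Mup21 stand Mup3 (ENSMUSG00000066154.11, chr4:62083476-62087342) and Mup20 (ENSMUSG00000078672.2, chr4:62050234-62054158). Mup7 (ENSMUSG00000073842.10, chr4:60066469-60070475), Mup2 (ENSMUSG00000078688.11, chr4:60135932-60154289) and Mup1 (ENSMUSG00000078683.9, chr4:60498012-60501960) lie toward the start of the cluster. Mup17 (ENSMUSG00000096688.1, chr4:61591929-61595871) and Mup5 (ENSMUSG00000058523.2, chr4:61831319-61835233) lie between these and Mup20. Mup6 (ENSMUSG00000078689.8, chr4:59964294-60007274) is the only member on the plus strand. No exon base of any member overlaps an exon of another gene on either strand.

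How far the members can be told apart is set by their letters, so the coding part of exon 2, which is 134 bases long in each of the 10, is shown for 7 of them. It is written 5′ to 3′ on the coding strand from the GENCODE M21 transcripts. Capitals mark each base that differs from the commonest base of the 10 members at that position. Where bases tied as commonest, the first in alphabetical order was taken, so some capitals mark a base that is equally common.
Mup3 (chr4:62086800-62086933, minus strand): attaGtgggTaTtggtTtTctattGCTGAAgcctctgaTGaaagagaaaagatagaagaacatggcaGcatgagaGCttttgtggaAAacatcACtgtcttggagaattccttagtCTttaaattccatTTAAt
Mup21 (chr4:62150195-62150328, minus strand): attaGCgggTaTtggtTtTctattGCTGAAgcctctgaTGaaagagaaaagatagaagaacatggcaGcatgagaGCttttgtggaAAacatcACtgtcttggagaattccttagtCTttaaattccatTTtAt
Mup20 (chr4:62053480-62053613, minus strand): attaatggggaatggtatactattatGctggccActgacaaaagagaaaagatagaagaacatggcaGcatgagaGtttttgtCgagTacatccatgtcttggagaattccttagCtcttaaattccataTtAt
Mup17 (chr4:61595193-61595326, minus strand): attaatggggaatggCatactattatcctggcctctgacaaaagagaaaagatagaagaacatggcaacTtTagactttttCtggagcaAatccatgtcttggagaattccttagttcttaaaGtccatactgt
Mup7 (chr4:60069733-60069866, minus strand): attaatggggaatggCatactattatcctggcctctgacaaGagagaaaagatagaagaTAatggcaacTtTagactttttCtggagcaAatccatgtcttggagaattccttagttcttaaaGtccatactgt
Mup2 (chr4:60139219-60139352, minus strand): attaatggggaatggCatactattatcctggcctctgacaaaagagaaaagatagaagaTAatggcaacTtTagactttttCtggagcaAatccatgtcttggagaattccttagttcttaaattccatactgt
Mup4 (chr4:59960039-59960172, minus strand): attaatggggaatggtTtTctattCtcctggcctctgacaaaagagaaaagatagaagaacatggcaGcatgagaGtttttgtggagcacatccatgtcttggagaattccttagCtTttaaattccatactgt
By this rule, ties included, Mup3 and Mup21 each differed at 26 of the 134 positions. Mup20 and Mup7 did so at 9 positions and Mup17 at 6, while Mup1 and Mup2 hold the same letters as each other throughout this exon.

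Over whole coding sequences, the nearest annotated relative of Mup3 was Mup21, with 94.75% identical bases and 29 differing positions. Mup20 was 91.34% identical to Mup11, its nearest relative. The nearest relatives of Mup17, Mup7, Mup1 and Mup2 were closer still, at 98.89% for Mup17 and Mup10, 99.15% for Mup7 and Mup1, 99.43% for Mup1 and Mup9, and 99.63% for Mup2 and Mup15, which differ at 2 positions. For Mup4, Mup5 and Mup6 the nearest identities were 92.04%, 92.04% and 91.81%.

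Counting by gene needs stretches of sequence that occur in a single gene. Of the 100-base windows along its exons, 97.1% occurred in no other gene's annotated transcripts for Mup3 and 95.5% for Mup21. For Mup20 this share was 61.2%, for Mup17 40.6%, for Mup7 18.4%, for Mup1 11.7% and for Mup2 2.7%. Mup4 and Mup6 reached 100% and Mup5 98.7%. Among the 12 other coding Mup genes it ran from 0% to 34%, with a median of 14.35%. For 50-base windows the share was 84.4% for Mup3, 80.7% for Mup21, 49.5% for Mup20 and 21.9% for Mup17. It was 9.8% for Mup7, 4.5% for Mup1 and 0% for Mup2. Single-gene values of Mup3 and Mup21 therefore rest mostly on letters of their own, and those of Mup20 and Mup17 in part. Those of Mup7, Mup1 and Mup2 rest on few, and reads from near-identical copies could have been lost or credited to the wrong gene. The summed members are given as well. Their sum keeps reads swapped between members, but it does not correct for reads lost or swapped with the other Mup genes.

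**Figure D1:**
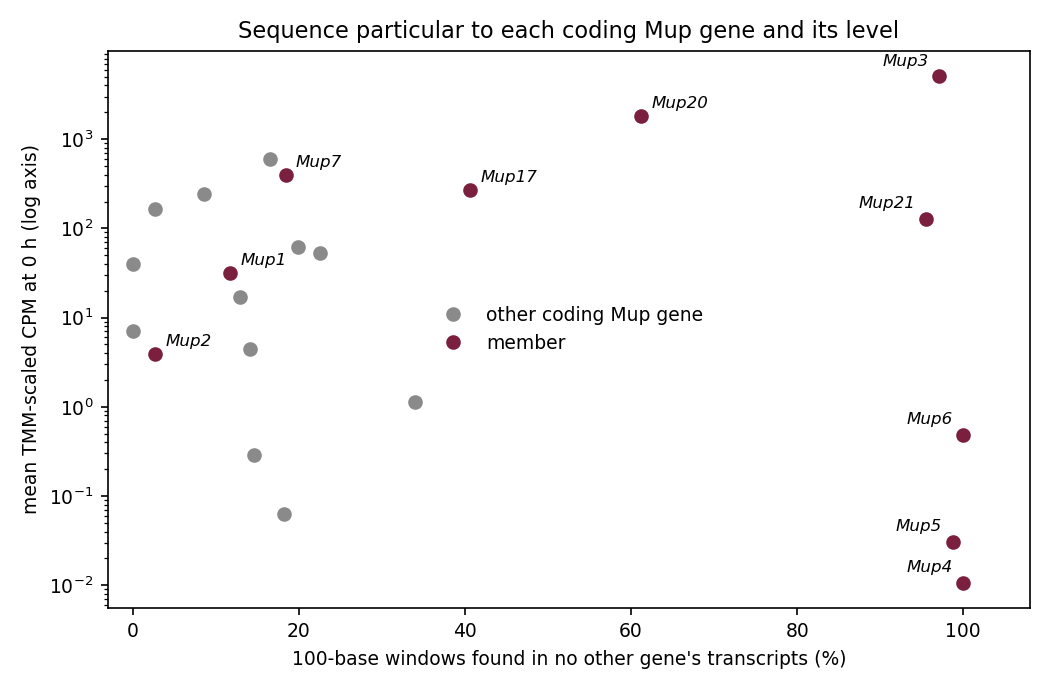
Share of 100-base windows found in no other gene's annotated transcripts (horizontal axis, percent) against the mean level at 0 h (vertical axis, TMM-scaled CPM, as defined with the levels, on a log axis, n = 3 libraries) for the 22 coding Mup genes, members in dark red and the others in grey. Mup3 (97.1%) and Mup21 (95.5%) combine a high level with a sequence of their own, Mup1, Mup2 and Mup7 sit at 18.4% or less, and Mup4, Mup5 and Mup6 lie at 98.7% or more with mean levels of 0.486 CPM or less.

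The libraries held 31419443 to 36346220 gene counts each. A level in CPM is a gene's counts per 1000000 gene counts of its library, the total being scaled by edgeR's TMM factor. The time points were compared by the quasi-likelihood test of edgeR with Benjamini-Hochberg adjustment, over all 17037 genes that reached 10 counts in 3 or more libraries. A count of 3 in a library, taken as the floor, is worth 0.0839 to 0.102 CPM on this scale and covers counting error only. Hepatocyte markers were abundant, as 12 genes such as Alb, Apob and Cyp2e1 took 10.6% to 12.7% of the gene counts at 0 h and 8.24% to 8.89% at 48 h. In bulk RNA, fewer cells that make a transcript and less of it per cell cannot be told apart.

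Together the 10 members were at about 34% of their 0 h level at 48 h, a value given without a test. Their summed level was 8173, 6931 and 8117 CPM in the 0 h libraries and 2418, 1959 and 3552 CPM in the 48 h libraries. Each 48 h library lay below each 0 h library. The mean sum was 7740 ± 702 (SD, n = 3) CPM at 0 h and 2643 ± 820 (SD, n = 3) CPM at 48 h, or 34.1% of the former, a log2 ratio of -1.55. As a share of all gene counts, the members took 0.658% to 0.764% at 0 h and 0.215% to 0.393% at 48 h.

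Of the 10 members, 8 had enough counts to be tested and 5 of these were lower at 48 h at an adjusted p under 0.05, namely Mup2, Mup3, Mup7, Mup20 and Mup21. Among all 17037 genes tested, 19.3% were lower by the same rule. No member was higher by edgeR (0 of 8, also 0 at an unadjusted p under 0.05, and 0 by DESeq2 and limma-voom), beside 21.4% of all genes. Mup1, Mup6 and Mup17 did not pass. In the same 5 members that passed, all 48 h libraries lay below all 0 h libraries, as they did in 25% of all genes. The median log2 fold change of the 8 members was -1.20, and that of all genes tested was -0.00325.

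**Figure D2:**
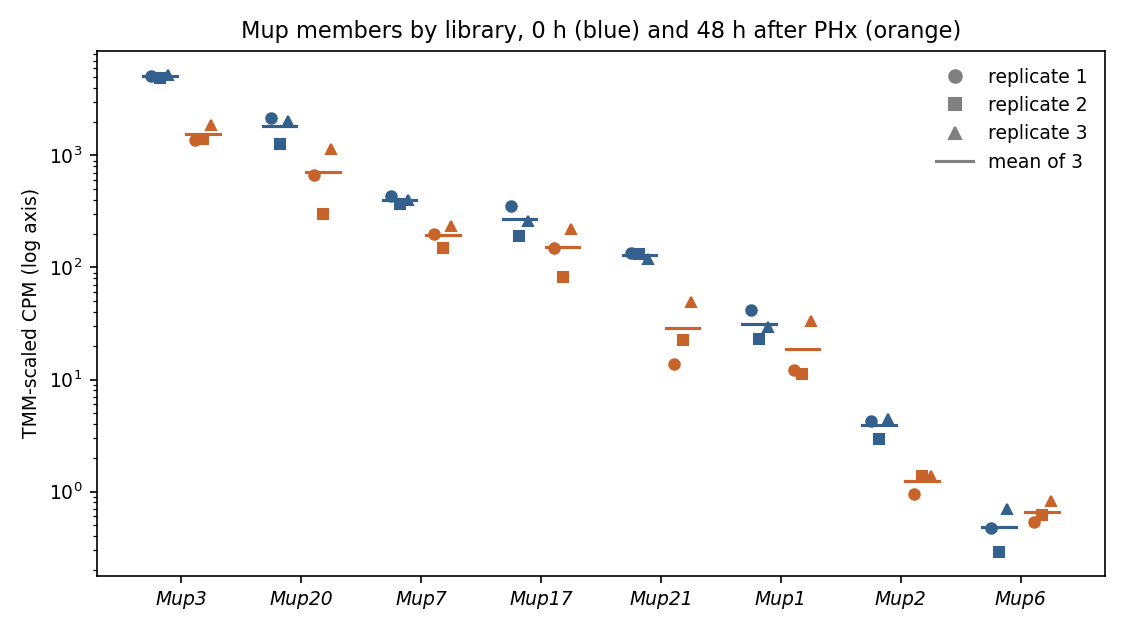
Level of the 8 tested members in each library (vertical axis, TMM-scaled CPM on a log axis), 0 h in blue and 48 h after PHx in orange, with a symbol for each replicate number and a line at the mean of 3 libraries. In Mup3, Mup20, Mup7, Mup21 and Mup2 the orange points lie wholly below the blue ones, in Mup17, Mup1 and Mup6 they overlap, and the triangle of 48 h replicate 3 is the highest orange point in each gene, level with replicate 2 in Mup2.

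Mup3 was the most abundant member at both times. Its level was 5068, 4946 and 5259 CPM at 0 h and 1379, 1391 and 1857 CPM at 48 h. The highest 0 h library held 1.06 times the lowest, and each 48 h library was far below both. The mean fell from 5091 ± 158 to 1542 ± 273 CPM (SD, n = 3 each), by 3.30-fold (log2 fold change -1.72, standard error 0.172, adjusted p = 3.12e-05 from edgeR). Per kilobase of exon, Mup3 ranked 11, 10 and 12 among the 55450 genes in the 0 h libraries and 38, 30 and 25 in the 48 h libraries. Only 2.28% of the genes tested had a lower log2 fold change.

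Mup20, the darcin gene, was the second most abundant member. It was read at 2141, 1269 and 2046 CPM at 0 h and at 663, 301 and 1150 CPM at 48 h. Its libraries were spread more widely than those of Mup3, with a coefficient of variation of 26.3% at 0 h and 60.4% at 48 h against 3.1% and 17.7%, yet the time points did not overlap. Mean levels were 1819 ± 478 and 705 ± 426 CPM (SD, n = 3 each), which gave a log2 fold change of -1.37 with 0.395 as its standard error (adjusted p = 0.0187 from edgeR). This call was lost without 0 h replicate 1 (-1.24, adjusted p = 0.0588 from edgeR) and without 0 h replicate 3 (-1.28, adjusted p = 0.0538). In rank per kilobase of exon, Mup20 went from 24, 34 and 25 to 61, 110 and 31.

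The largest fold change of the 8 was that of Mup21, the neighbour and nearest relative of Mup3. Its level was 135, 132 and 120 CPM at 0 h and 13.7, 22.3 and 49.6 CPM at 48 h. All 3 undamaged livers gave nearly the same value, while the 48 h libraries differed among themselves by up to 3.63-fold. From 129 ± 8.20 CPM the mean fell to 28.5 ± 18.8 CPM (SD, n = 3 each), by 4.52-fold (log2 fold change -2.17, standard error 0.363, adjusted p = 0.000901 from edgeR). Its rank per kilobase of exon dropped from 200, 184 and 227 to 1497, 948 and 386, and 1.18% of the genes tested had a lower log2 fold change.

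Mup7 and Mup17 stood in the middle of the range, and both share most of their sequence with other copies. Mup7 was read at 430, 366 and 398 CPM at 0 h and 200, 149 and 237 CPM at 48 h, with no overlap (398 ± 32.2 to 195 ± 44.2 CPM, SD, n = 3 each). It fell by 2.04-fold (log2 fold change -1.03, standard error 0.170, adjusted p = 0.000838 from edgeR). Mup17 was read at 352, 191 and 260 CPM at 0 h and 149, 82.6 and 223 CPM at 48 h. Here 48 h replicate 3 lay above 0 h replicate 2, and the log2 fold change of -0.82 did not pass the test (standard error 0.317, adjusted p = 0.0605 from edgeR).

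Mup1 and Mup2 were far lower. Mup1, whose product is known as a circulating regulator of glucose metabolism, was read at 41.9, 22.8 and 29.3 CPM at 0 h and 12.1, 11.1 and 33.5 CPM at 48 h. The third 48 h library exceeded 2 of the 0 h libraries, and the log2 fold change of -0.73 did not pass the test (standard error 0.379, adjusted p = 0.152 from edgeR). Mup2 stood at 4.29, 2.96 and 4.49 CPM at 0 h and 0.950, 1.37 and 1.37 CPM at 48 h, with no overlap, and fell by 3.18-fold (log2 fold change -1.66, standard error 0.247, adjusted p = 0.00043 from edgeR). With 2.7% of its windows found nowhere else, the value of Mup2 in particular cannot be separated from that of its near-identical copies.

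Mup4 and Mup5 were at the floor and Mup6 was low, although 98.7% or more of their 100-base windows occur in no other gene. Mup6 had 14, 9 and 23 counts at 0 h and 18, 22 and 29 counts at 48 h (0.486 ± 0.202 and 0.659 ± 0.152 CPM, SD, n = 3 each). Its log2 fold change of 0.43 did not pass the test (standard error 0.372, adjusted p = 0.389 from edgeR), and a difference was not detectable at this depth. Mup5 had 0, 1 and 2 counts at 0 h and 0, 0 and 1 at 48 h, and Mup4 a single count, in 0 h replicate 2. Neither was tested, and both were at or under the floor of 3 counts in all 6 libraries.

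Set in order per kilobase of exon, the members at 0 h ran from Mup3 (4767 ± 148, SD, n = 3, in CPM per kilobase) through Mup20 (1960 ± 515), Mup7 (385 ± 31.2), Mup17 (289 ± 87.0) and Mup21 (190 ± 12.1) to Mup1 (19.8 ± 6.14), Mup2 (2.93 ± 0.620) and Mup6 (0.486 ± 0.202). Mup7 and Mup17 overlapped between libraries, and the other neighbours in this order did not. At 48 h the order was the same, with 1444 ± 256 for Mup3, 760 ± 459 for Mup20, 189 ± 42.8 for Mup7, 163 ± 75.5 for Mup17 and 42.2 ± 27.7 for Mup21. At that time Mup7 and Mup17 again overlapped, as did Mup21 (20.2 to 73.3) with Mup1 (7.01 to 21.2) and Mup2 (0.711 to 1.03) with Mup6 (0.534 to 0.828).

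Within the summed members, Mup3 made up 66.1% ± 4.81 at 0 h and 60.1% ± 9.73 at 48 h, and Mup20 23.2% ± 4.29 and 25.1% ± 8.74 (SD, n = 3 each), with overlapping libraries in both. Mup7 made up 4.90% to 5.28% at 0 h and 6.66% to 8.26% at 48 h, without overlap. Mup21 went the other way, from 1.47% to 1.90% at 0 h down to 0.566% to 1.40% at 48 h. Mup6, with few counts, went from 0.00418% to 0.00853% at 0 h up to 0.0221% to 0.0314% at 48 h. Likewise the ratio of Mup7 to Mup3 was 0.0849, 0.0740 and 0.0756 at 0 h and 0.145, 0.107 and 0.127 at 48 h. The ratios of Mup20, Mup21 and Mup17 to Mup3 overlapped between the time points.

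48 h replicate 3 stood apart in these genes. It was the highest of the 48 h libraries in 8 of the 8 members tested, while it was the highest in 34% of all genes tested. In Mup2 it equalled replicate 2 at 1.37 CPM, from 48 and 49 counts. Relative to the mean of the other 48 h libraries it held 2.89 times as much Mup1, 2.76 times as much Mup21, 2.38 times as much Mup20 and 1.93 times as much Mup17, but 1.34 times as much Mup3, 1.36 times as much Mup7, 1.44 times as much Mup6 and 1.18 times as much Mup2. Without this library 7 of the 8 members were lower, Mup1 (log2 fold change -1.43, adjusted p = 0.000917 from edgeR) and Mup17 (-1.20, adjusted p = 0.00859) among them. The summed members then had a log2 ratio of -1.82, Mup20 a log2 fold change of -1.91 and Mup21 of -2.83. At 0 h, replicate 2 was the lowest library in 7 of the 8 members and in 6825 of the 17037 genes tested.

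Of the 12 coding Mup genes that are no members, 10 were tested, 5 were lower and 0 were higher by edgeR, also 0 at an unadjusted p under 0.05, beside 19.3% lower and 21.4% higher of all genes. Among those with a mean of at least 10 CPM, Mup14, Mup15, Mup18 and Mup22 fell, with log2 fold changes of -0.82, -1.44, -1.46 and -1.43 (adjusted p of 0.0183 or less from edgeR). Only 8.6%, 2.7%, 12.9% and 0% of their 100-base windows occurred in no other gene. Their values therefore cannot be fully separated from those of near-identical copies. Mup11, Mup12 and Mup16 had -0.38, -0.60 and -0.51 and did not pass. Mup11 was the most abundant of them, at 598 CPM on average at 0 h and 461 CPM at 48 h. Summed over the 12, the level went from 1188 ± 41.7 to 763 ± 287 CPM (SD, n = 3 each), a log2 ratio of -0.64, beside -1.55 for the members. Near-identical copies stand on both sides of this comparison, so reads could have been credited across it. Of 4 pseudogenes with enough counts to be tested, 3 met the count filter through the 0 h libraries alone, so that they had to be lower at 48 h. The other one, Mup-ps13, had 154, 168 and 136 counts at 0 h and 33, 25 and 46 at 48 h (log2 fold change -2.30, adjusted p = 6.52e-05 from edgeR). Over all 49 Mup genes the log2 ratio of the sums was -1.39, and over the members without Mup3 it was -1.27.

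**Figure D3:**
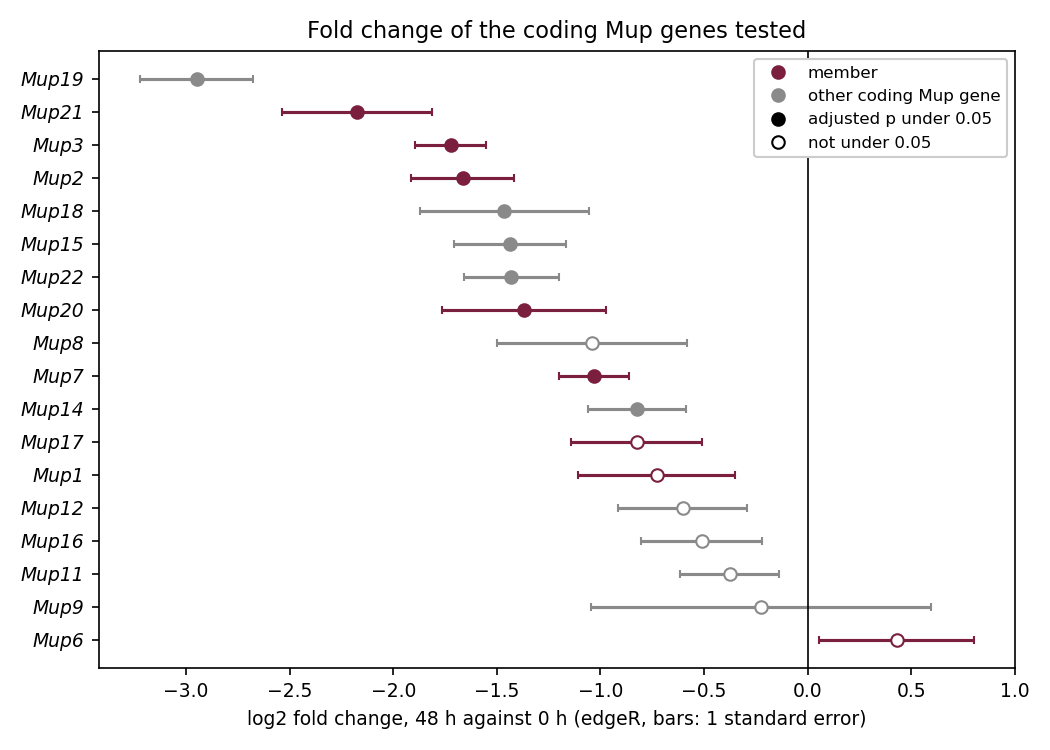
Log2 fold change of the 18 coding Mup genes tested, 48 h against 0 h, with 1 standard error on each side, from edgeR's quasi-likelihood test on 3 against 3 libraries. Members are in dark red and other coding Mup genes in grey, filled where the adjusted p is under 0.05. Mup19 at -2.95 and Mup21 at -2.17 are the lowest, and Mup6 at 0.43 is the only gene above 0. For Mup19, 0% of the 100-base windows occurred in no other gene.

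Promoter sequence was at hand for 7 of the 10 members, from RefSeq on GRCm38.p6. The window of Mup2, which fell, is left out here, and 3 others from members that fell are shown. Each is the 250 bases before the start annotated by RefSeq, 5′ to 3′ on the gene's strand. For Mup3 and Mup21 that start lies inside the GENCODE M21 bounds of the gene, so the end of the window overlaps the GENCODE exon.
Mup3 (chr4:62087318-62087567, minus strand): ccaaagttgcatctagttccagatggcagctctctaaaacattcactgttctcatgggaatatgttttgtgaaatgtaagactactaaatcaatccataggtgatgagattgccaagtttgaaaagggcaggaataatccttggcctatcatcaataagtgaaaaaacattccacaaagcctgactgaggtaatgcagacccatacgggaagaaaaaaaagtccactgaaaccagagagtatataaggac
Mup21 (chr4:62150842-62151091, minus strand): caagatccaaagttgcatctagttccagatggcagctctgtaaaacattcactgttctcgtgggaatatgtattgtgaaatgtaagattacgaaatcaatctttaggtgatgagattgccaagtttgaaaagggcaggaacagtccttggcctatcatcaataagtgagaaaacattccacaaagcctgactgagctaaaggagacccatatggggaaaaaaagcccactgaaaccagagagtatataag
Mup7 (chr4:60070476-60070725, minus strand): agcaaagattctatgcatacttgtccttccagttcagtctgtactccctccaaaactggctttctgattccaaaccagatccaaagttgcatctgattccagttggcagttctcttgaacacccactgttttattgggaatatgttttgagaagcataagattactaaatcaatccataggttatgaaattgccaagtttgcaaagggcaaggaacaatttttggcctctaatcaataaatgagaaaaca
The letters TATAAA, read on both strands, occurred in 2 of the 7 windows, those of Mup4 and Mup6, where they begin 27 bases before the RefSeq start, and in 12.37% of 32851 mouse promoter windows of the same length. Toward their end, the windows of Mup2, Mup3, Mup17 and Mup21 hold the letters TATATAAG, which this exact pattern does not match. The STAT5 pattern TTCNNNGAA, which reads the same on both strands, was found in 0 of the 7 and in 7.02% of all windows. A window set by the annotated start may miss a site, and these counts say only which letters it holds.

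Signalling from the growth hormone receptor is the best known input to Mup transcription. Of 14 such genes, all tested, 4 were lower and 3 were higher, beside 19.3% lower and 21.4% higher of all genes, with a median log2 fold change of -0.20. Ghr, the receptor, was read at 657, 697 and 704 CPM at 0 h and at 206, 262 and 288 CPM at 48 h. It fell by 2.73-fold with no overlap (log2 fold change -1.45, standard error 0.149, adjusted p = 3.88e-05 from edgeR). Stat5b, the transcription factor downstream of it, fell from 96.6 ± 10.4 to 47.7 ± 1.84 CPM (SD, n = 3 each, log2 fold change -1.02, adjusted p = 5.88e-05 from edgeR). Igfals, a growth hormone target that stabilises circulating IGF1, fell by 2.52-fold (adjusted p = 5.73e-05 from edgeR), and Socs3, a feedback inhibitor of cytokine receptors, rose from 11.1 ± 1.46 to 43.4 ± 8.89 CPM (SD, n = 3 each, adjusted p = 7.8e-06 from edgeR). Whether these changes bear on the Mup levels was not tested.

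Of 23 transcription factors and hormone receptors of the liver, 5 were lower and 4 higher, shares near those of all genes (19.3% and 21.4%), and the median log2 fold change was -0.17. Onecut1 (HNF6), which takes part in sex-biased liver expression, had a log2 fold change of -1.23, Cebpa, a factor of mature hepatocytes, of -0.97, and Thra, a thyroid hormone receptor, of -0.96, while Cebpd, an acute-phase factor, had 1.10 (adjusted p of 0.0161 or less from edgeR). Zhx2, a known regulator of Mup genes, stood at 38.4 ± 6.26 CPM at 0 h and 45.2 ± 2.35 CPM at 48 h (SD, n = 3 each) and did not pass (log2 fold change 0.23, adjusted p = 0.173 from edgeR).

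Most of the other listed genes with higher expression in male than in female liver fell, as did most of the Mup members tested. Of 15, all tested, 13 were lower and 0 were higher by edgeR and by limma-voom, beside 19.3% lower and 21.4% higher of all genes, with a median log2 fold change of -1.72. At an unadjusted p under 0.05 the count of higher genes was 1, as it was by DESeq2 and with library size as the only scaling. Elovl3, a fatty acid elongase, was read at 367, 364 and 342 CPM at 0 h and at 3.18, 4.78 and 23.1 CPM at 48 h (log2 fold change -5.11, standard error 0.634, adjusted p = 0.000136 from edgeR). Hsd3b5, a steroid dehydrogenase found in male liver, went from 280 ± 39.1 to 13.2 ± 11.0 CPM (SD, n = 3 each, log2 fold change -4.41, adjusted p = 0.000107 from edgeR). Cyp4a12a, an androgen-dependent fatty acid hydroxylase, and Slco1a1, an organic anion transporter, had log2 fold changes of -2.61 and -1.97 (adjusted p of 0.00036 or less from edgeR). As with the Mup genes, 48 h replicate 3 was the highest 48 h library in 13 of the 15, with 5.81 times the mean of the other 48 h libraries for Elovl3 and 3.57 times for Hsd3b5.

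Of 22 genes with higher expression in female liver, 12 had enough counts, 3 were lower and 4 were higher, beside 19.3% lower and 21.4% higher of all genes, and the median log2 fold change was -0.03. Cyp17a1, of steroid synthesis, rose from 5.01 ± 1.23 to 15.9 ± 7.80 CPM (SD, n = 3 each), Cyp39a1, an oxysterol hydroxylase, had a log2 fold change of 0.57, and Cyp2b10, a xenobiotic hydroxylase, of -1.53 (adjusted p of 0.0199 or less from edgeR). Cux2, a repressor of male-biased genes in female liver, had 13, 26 and 23 counts at 0 h and 43, 72 and 20 at 48 h and did not pass (log2 fold change 0.96, adjusted p = 0.106 from edgeR).

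**Figure D4:**
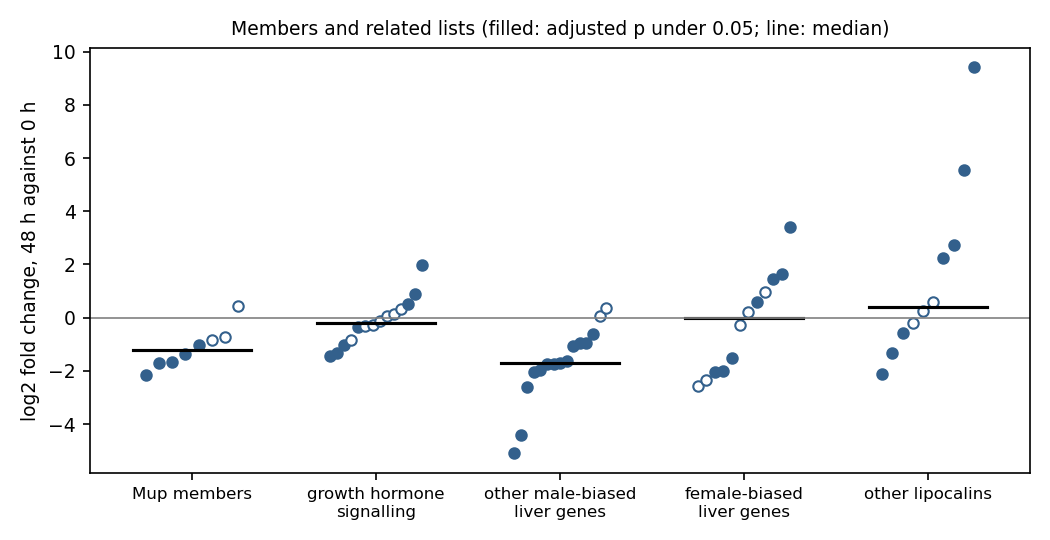
Log2 fold change, 48 h against 0 h, of each tested gene in 5 lists (vertical axis), sorted within a list, with filled points at an adjusted p under 0.05 from edgeR and a line at each list's median. The Mup members (median -1.20) and the other male-biased genes (median -1.72) lie mostly below 0, while growth hormone signalling genes, female-biased genes and other lipocalins lie on both sides.

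Of 14 other lipocalins, the protein family to which the Mup proteins belong, 10 were tested, 4 were higher and 3 lower, beside 21.4% higher and 19.3% lower of all genes, with a median log2 fold change of 0.42. Lcn2, an iron-siderophore binder of the acute phase, rose from 3.83 ± 0.555 to 2625 ± 1636 CPM (SD, n = 3 each), with 4498, 1903 and 1475 CPM in the 48 h libraries. The orosomucoid genes Orm2 and Orm1, acute-phase carriers, had log2 fold changes of 5.57 and 2.26, and C8g, a complement subunit, of -1.32 (adjusted p of 2.47e-05 or less from edgeR). Of 20 abundant plasma proteins, 7 were lower and 4 higher, beside the same shares of all genes, with a median log2 fold change of -0.22. Hp and Hpx, which bind free haemoglobin and haem, had 2.02 and 1.87, and the apolipoproteins Apoa2 and Apoh had -1.40 and -1.36 (adjusted p of 0.000175 or less from edgeR).

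Markers of other cell types are given beside the shares of all genes that were lower (19.3%) or higher (21.4%). The 12 endothelial markers took 0.0263% to 0.0414% of gene counts at 0 h and 0.0199% to 0.0245% at 48 h, and 11 were lower. The 12 Kupffer cell markers took 0.00777% to 0.0116% and 0.0121% to 0.0161%, and 3 were higher. Of 10 stellate cell markers, 2 of the 9 tested were lower and 1 higher, at 0.00638% to 0.0106% and 0.00597% to 0.00767% of gene counts. The 8 cholangiocyte markers took 0.00299% or less, with Tff2 at 0 in all libraries, and 2 of the 3 tested were higher, of which Muc1 met the count filter through the 48 h libraries alone. The 8 neutrophil markers took 0.000166% or less, with Ltf and Mpo at 0, and the single one tested, Csf3r, was lower. Of the 12 hepatocyte markers, 4 were lower and 8 did not pass. The part of these markers in the Mup result was not tested, and each list other than the hepatocyte one holds less than 0.05% of the counts.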

How the data were processed

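Hepatocyte RNA was sequenced in 6 libraries, grouped by the sample labels into 3 at 0 h and 3 at 48 h. The authors deposited raw read counts per gene, without normalization. The submitters' processing notes name FastQC 0.11.5, Trim Galore 0.6.4, STAR 2.6, HTSeq 0.12.4, DESeq2 and mm10, without their settings. The strand setting and the handling of reads that fit several places are not given in the sources used here, and the files list 0 reads as unaligned, low-quality or with several alignments. Reads on no gene (24.3% to 32.7% of those in the files) and ambiguous reads (4.27% to 5.29%) were left out. Libraries of the same time point differed by more than counting noise. The p-values measure the spread between the 3 preparations of a group.

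Gene names, coordinates and transcripts came from GENCODE M21. Counts were TMM-scaled and tested with edgeR 4.0.16 in R 4.3.3 (glmQLFit and glmQLFTest, time as the only term, a filter of 10 counts in 3 or more libraries), with Benjamini-Hochberg adjustment. In a simulation of this comparison on 16699 genes, 193 of them changed, the test recovered 69.0% of 2-fold and 96.2% of 4-fold changes, and 7.96% of its calls were unchanged genes. Alternatives were DESeq2 1.42.0, limma-voom (limma 3.58.1), other scalings and filters, the replicate number as a block, and leaving out each library. Named beside the members are Mup genes averaging 10 CPM or more, in each gene list the up to 4 largest changes past the threshold at that mean, 7 regulators and male-biased genes in any case, and the 5 genes nearest in pattern to the summed members. Some genes that this rule covers are not reported here. Mup19, Mup-ps13 and the cell type markers Alb, Apob, Cyp2e1, Tff2, Muc1, Ltf, Mpo and Csf3r were named after their values were seen. The members and lists were chosen with earlier results of these data known.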

Additional observations from a re-analysis of the deposited data

How the results depend on the processing

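Mup2, Mup3, Mup7 and Mup21 stayed lower and past the threshold under all 15 alternatives run for each (DESeq2, limma-voom, 4 other scalings, 2 other filters, the replicate block and 6 fits without 1 library), with log2 fold changes of -1.84 to -1.45, -1.87 to -1.52, -1.19 to -0.83 and -2.83 to -1.85. The number of members lower ranged from 4 to 7, and none was higher. Leaving out 1 library at a time gave a log2 ratio of the summed members of -1.82 to -1.37, 2540 to 3166 lower and 2649 to 3395 higher genes, and 2 to 5 higher plasma protein genes, with 2 where 0 h replicate 1 or 3 was missing. Mup17 passed with upper-quartile factors, without a filter on low counts, with limma-voom, and without 0 h replicate 2 or 48 h replicate 3, and Mup1 without the filter (log2 fold change -0.75, adjusted p = 0.00262 from edgeR) and without 48 h replicate 3. With library size as the only scaling, which shifted the median log2 fold change of all genes by 0.20, 2110 genes were lower and 5308 higher, in place of 3288 and 3638. In that setting 7 transcription factors and receptors and 1 male-biased gene were higher, DESeq2 also gave 1 higher male-biased gene, upper-quartile factors gave 8 lower transcription factors and receptors, and no filter gave 5 lower and 7 higher female-biased genes. The causes were not tested.

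Same-numbered libraries come from different mice, and the correlations of their deviations from the group means were 0.036, -0.0931 and -0.166, so the numbers were not taken as pairs. With the replicate block, 2884 genes were lower and 3237 higher, 6 members were lower and 0 higher, Mup17 passed (log2 fold change -0.90, adjusted p = 0.00925 from edgeR), 5 female-biased genes were lower, and the log2 ratio of the summed members was -1.59.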

Other observations

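Among the 5 genes outside the Mup family whose level followed that of the summed members most closely over the 6 libraries, by the root mean square difference of centred log2 CPM among 7551 genes averaging 10 CPM or more, were Nr1d1 (0.156), Pigr (0.159), Tdo2 (0.165) and Adck5 (0.173). Nr1d1, the circadian repressor REV-ERB alpha, stood at 286, 217 and 290 CPM at 0 h and 78.0, 85.8 and 121 CPM at 48 h. Like most of the Mup members it was highest at 48 h in replicate 3 and lowest at 0 h in replicate 2. The others named are Pigr, the polymeric immunoglobulin receptor, at 1525 ± 104 and 443 ± 94.2 CPM, Tdo2, the tryptophan dioxygenase of liver, at 726 ± 59.9 and 222 ± 30.4 CPM, and Adck5, a kinase-like gene, at 28.0 ± 0.887 and 8.26 ± 1.59 CPM (SD, n = 3 each, 0 h and 48 h). They were picked for this likeness, so their values are a description.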
